A study of Mus musculus with 10 samples.

Results

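The kinesin genes of αTC1 cells, a glucagon-producing mouse cell line that came from an α cell tumour of the pancreas, were compared between enzalutamide and its solvent. The set is defined by gene symbols and held 41 of the 33212 genes of the count table. Its mitotic members were 12 genes (Kif2c, Kif4, Kif11, Kif14, Kif15, Kif18a, Kif18b, Kif20a, Kif20b, Kif22, Kif23 and Kifc1). The 29 other members were every remaining gene named Kif with a number and at most 1 letter, with the kinesin light chains Klc1, Klc2 and Klc4, and they are called transport kinesins here although not all of them carry vesicles. Polyadenylated RNA was sequenced from 5 libraries of cells kept for 48 h in 10 μM enzalutamide, an antiandrogen that blocks the androgen receptor, and from 5 libraries of cells given DMSO for 48 h. All cells were grown in DMEM with low glucose (1 g/L) and serum. The libraries are labelled as biological replicates of 1 cell line. No label names separate cultures, so the p-values speak of the variation among these libraries, which may be technical. Library totals lay between 59557697 and 68603842 counts, and levels are given as CPM (each count divided by its library's scaled total and put on 1 shared scale), with ± for the SD over 5 libraries.

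Kinesins are motor proteins that use ATP to move along microtubules or to take them apart. In dividing cells the mitotic kinesins push the spindle poles apart, position chromosomes and build the midzone at which the cell is cut, and their genes are known to be switched on late in the cell cycle. In neurons and endocrine cells the transport kinesins, chiefly the kinesin-1, kinesin-2 and kinesin-3 families, carry organelles and the dense-core granules that store peptide hormones such as glucagon towards the plus ends of microtubules.

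The α cell label was checked against marker genes. The 5 α cell markers Gcg, Irx1, Irx2, Ttr and Pcsk2 were all detected, with a summed level between 18286 and 19487 CPM in DMSO and between 10837 and 12125 CPM in enzalutamide. Gcg fell by 44.6% and Ttr fell by 57.0% in enzalutamide, and Irx1, Irx2 and Pcsk2 did not pass the test. A scaling by total counts without Gcg and mitochondrial mRNAs is among the alternatives below. Any other part of the fall of Gcg and Ttr in the kinesin values was not tested. Of 22 markers of β, δ, PP, acinar, duct, fibroblast, endothelial and immune cells, 9 had 0 counts in every library, among them Ins1, Pdx1, Sst, Ppy and Ptprc. Their summed level was between 21.6 and 23.3 CPM in DMSO and between 17.1 and 22.8 CPM in enzalutamide. Most of it came from the duct marker Sox9 (11.5 ± 0.258 and 10.1 ± 1.02 CPM) and the acinar marker Cela1 (6.73 ± 0.922 and 6.11 ± 0.927 CPM). Sox9 was lower without overlap but did not pass (edgeR adjusted p = 0.0616). Col1a2, at 1.06 ± 0.276 and 0.394 ± 0.213 CPM, was the only one of the 22 that passed the test below.

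Promoters of the mitotic members were examined first, because members that move together can be compared for what their start regions share. RefSeq (GRCm38.p6) gave windows from 250 bases before to 50 bases after the transcription start for 11 of the 12 mitotic and 23 of the 29 transport kinesins. Kif20a, Kif5a, Kif5b, Kif13b, Kif19a, Kif21b and Klc2 had no window in the collection used here, which does not mean that RefSeq lacks them. The letters TTTGAA, the core of the cell cycle gene homology region known from promoters of late cell cycle genes, and CCAAT, the box bound by the factor NF-Y, were searched on both strands. The 100 bases from 75 before the start are printed below in the direction of transcription, with every match of either motif in capitals, where TTCAAA and ATTGG are the same motifs on the other strand. The first 8 are the mitotic members with a TTTGAA match in this stretch. They lay at chr19:37376307-37376406 (Kif11), chr9:122951006-122951105 (Kif15), chr19:34922283-34922382 (Kif20b) and chrX:100625990-100626089 (Kif4) on the plus strand, and at chr11:102925100-102925199 (Kif18b), chr7:127042396-127042495 (Kif22), chr9:61946775-61946874 (Kif23) and chr17:33890609-33890708 (Kifc1) on the minus strand. Kif18a (chr2:109280663-109280762, plus strand) is the mitotic member with no match, and Kif3c (chr12:3365057-3365156, plus strand) and Kif5c (chr2:49619211-49619310, plus strand) are transport members for contrast.
Kif11: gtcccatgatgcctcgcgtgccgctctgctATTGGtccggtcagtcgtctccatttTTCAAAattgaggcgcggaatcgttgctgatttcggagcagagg
Kif15: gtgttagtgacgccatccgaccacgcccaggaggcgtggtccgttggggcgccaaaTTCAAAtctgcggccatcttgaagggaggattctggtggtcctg
Kif18b: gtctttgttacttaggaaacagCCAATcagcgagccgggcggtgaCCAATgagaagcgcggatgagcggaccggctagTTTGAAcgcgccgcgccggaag
Kif20b: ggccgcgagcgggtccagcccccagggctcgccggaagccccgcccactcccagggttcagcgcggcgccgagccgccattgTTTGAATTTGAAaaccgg
Kif22: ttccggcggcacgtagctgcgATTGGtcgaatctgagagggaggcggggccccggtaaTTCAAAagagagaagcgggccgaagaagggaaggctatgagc
Kif23: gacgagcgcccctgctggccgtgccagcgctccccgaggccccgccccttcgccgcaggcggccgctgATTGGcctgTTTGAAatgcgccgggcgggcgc
Kif4: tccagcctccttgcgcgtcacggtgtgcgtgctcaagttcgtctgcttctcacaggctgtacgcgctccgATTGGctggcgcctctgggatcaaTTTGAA
Kifc1: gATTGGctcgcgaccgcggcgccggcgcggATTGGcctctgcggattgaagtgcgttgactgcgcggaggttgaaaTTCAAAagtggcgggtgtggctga
Kif18a: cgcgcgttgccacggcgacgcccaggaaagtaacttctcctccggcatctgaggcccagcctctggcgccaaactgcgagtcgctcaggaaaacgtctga
Kif3c: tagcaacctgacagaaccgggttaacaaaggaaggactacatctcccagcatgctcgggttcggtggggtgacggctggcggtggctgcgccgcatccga
Kif5c: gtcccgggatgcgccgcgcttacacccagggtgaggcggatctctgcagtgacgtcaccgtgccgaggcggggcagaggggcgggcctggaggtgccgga

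TTTGAA occurred in 10 of the 11 mitotic windows (90.9%), in 3 of the 27 windows of transport members (11.1%, where some genes have more than 1 start) and in 17.9% of all 32851 RefSeq promoter windows of that length. The 3 transport windows belonged to Kif1a, Kif26b and Kif27. CCAAT occurred in 7 of the 11 mitotic windows (63.6%), in 10 of the 27 transport windows (37%) and in 37.4% of all windows. Both motifs stood together in 7 of the 11 mitotic windows (63.6%) and in 6.95% of all windows. With the first transcribed base counted as 1 and the base before it as -1, the first base of the TTTGAA match nearest the start was at -19 in Kif11 and Kif15, at -17 in Kif22, at 2 in Kifc1, at 3 in Kif23, at 4 in Kif18b, at 8 in Kif20b and at 20 in Kif4. Kif20b carried 2 copies in tandem, at 8 and 14. A match that began between -50 and 25, a range chosen after these positions were seen, was present in 8 of the 11 mitotic windows, in 2 of the 27 transport windows (7.41%) and in 4.06% of all windows. Within the last 100 bases before the start, TTTGAA was present in 3 of the 11 mitotic windows (27.3%), in 3 of the 27 transport windows (11.1%) and in 5.77% of all windows. In Kif14 and Kif2c the match was farther away, at -228 and -103. The RefSeq start was 1505 bases from the gene start of GENCODE M21, the annotation used for gene positions, in Kif14, 3867 in Kif2c and 328 in Kif4, one of the 8 with a near match, and at most 51 bases from it in the other 8 mitotic genes with a window. In no mitotic window did a match of one motif share a base with a match of the other. These counts describe letters in the windows and are not evidence that a factor binds there.

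**Figure D1:**
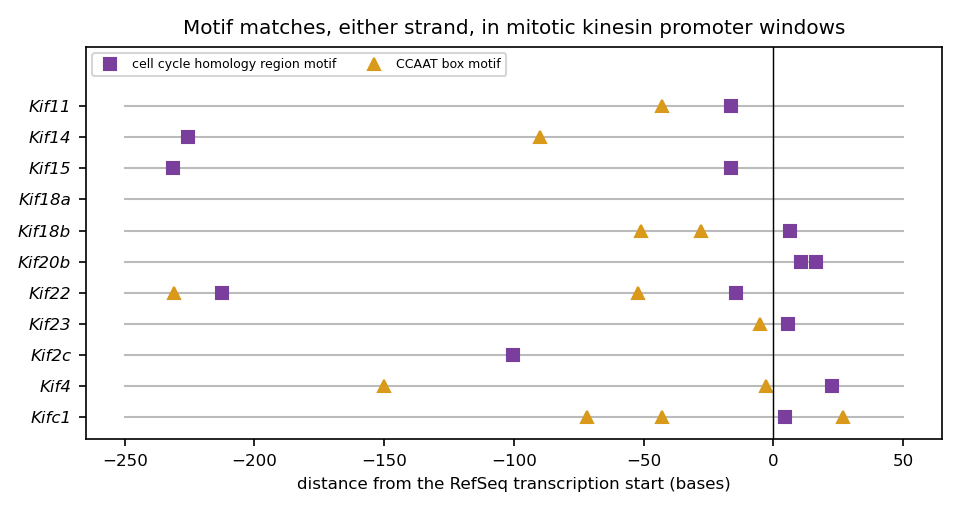
Matches of the cell cycle homology region motif (squares) and of the CCAAT box motif (triangles), on either strand, in the 11 mitotic kinesin promoter windows used here. The horizontal axis is the distance from the transcription start in bases. The squares of 8 genes lie between -50 and 25 and Kif18a has no match of either motif.

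All 12 mitotic kinesins of the set fell in enzalutamide. Each had a Benjamini-Hochberg adjusted p under 0.05 in edgeR's quasi-likelihood test, and for each the 5 enzalutamide libraries lay below the 5 DMSO libraries. Over all 14156 genes that passed the filter on low counts, 18.8% were called lower and 13.7% were lower without overlap between the groups. The members were chosen with earlier results of these data known, so the count of 12 is a description and not a test of the set. Adjusted p-values of the 12 were between 4.44e-08 (Kif4) and 0.000384 (Kif18a). The changes were small and similar in size, from -13.1% (Kifc1) to -26.6% (Kif4), with a median log2 fold change (enzalutamide against DMSO) of -0.33, against 0.01 over all genes tested. Summed over the 12 genes, the level was 1311, 1338, 1332, 1347 and 1375 CPM in the DMSO libraries and 1065, 1037, 1067, 1075 and 1079 CPM in the enzalutamide libraries. The mitotic members made up 31.7 ± 0.261% of the CPM of the whole kinesin set in DMSO and 26.9 ± 0.497% in enzalutamide (n = 5 each). In bulk RNA, fewer dividing cells and less kinesin mRNA per dividing cell cannot be told apart.

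**Figure D2:**
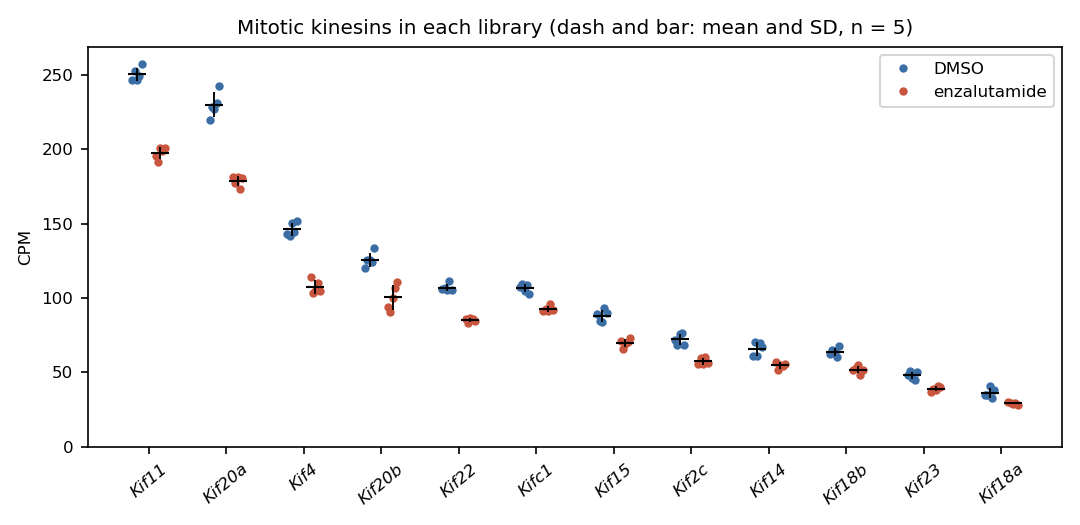
Level in CPM (vertical axis) of each mitotic kinesin in the 5 DMSO libraries (blue) and the 5 enzalutamide libraries (red), with the mean (dash) and SD (bar), genes ordered by their DMSO level. For all 12 genes the red points lie below the blue points.

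The first 3 members keep the 2 spindle poles apart or together. Kif11 (ENSMUSG00000012443, chr19:37376403-37421859), a kinesin-5 that slides antiparallel microtubules and separates the poles, had 247, 253, 247, 249 and 258 CPM in DMSO. In enzalutamide it had 196, 192, 201, 199 and 201 CPM, so that the gap between the groups was wider than the spread within either. Its log2 fold change was -0.34 ± 0.028 (SE; edgeR quasi-likelihood test, adjusted p = 4.48e-08) and it fell by 21.1%. Kif15 (ENSMUSG00000036768, chr9:122951046-123018733), a kinesin-12 that can keep the spindle bipolar beside Kif11, had 89.1, 84.5, 83.9, 93.2 and 89.6 CPM in DMSO and 71.0, 65.9, 68.9, 70.6 and 73.2 CPM in enzalutamide. The highest treated library stayed below the lowest control library, and the log2 fold change was -0.33 ± 0.040 (SE; adjusted p = 4.13e-06 by the same edgeR test). Kifc1 (ENSMUSG00000079553, chr17:33875659-33890661) is the minus-end-directed kinesin-14 that gathers microtubule ends at the poles. It had 107, 109, 105, 109 and 103 CPM in DMSO and 91.5, 92.7, 91.4, 95.8 and 91.8 CPM in enzalutamide, without overlap. The difference of -0.20 ± 0.032 (SE; edgeR, adjusted p = 7.96e-05) was the smallest of the 12. Its value is less certain than the others: 39.7% of its 50-base transcript windows occur in other genes too, 38.6% in its near-copy Kifc5b, and how reads that fit several genes were counted is not given in the sources used here. Kifc5b, which is no member, had 54.3 ± 1.50 CPM in DMSO and 51.6 ± 1.27 CPM in enzalutamide and did not pass (log2 fold change -0.07, edgeR adjusted p = 0.157).

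Chromosome position and microtubule length are set by the next group. Kif22 (ENSMUSG00000030677, chr7:127027729-127042471), a kinesin-10 that pushes chromosome arms away from the poles, had 106, 107, 106, 111 and 105 CPM in DMSO. The enzalutamide libraries were close to each other, at 85.9, 83.4, 86.4, 85.7 and 84.4 CPM, and all lay below. Its log2 fold change was -0.33 ± 0.031 (SE; edgeR, adjusted p = 2.95e-07). Kif18a (ENSMUSG00000027115, chr2:109280738-109341747), a kinesin-8 that damps the movements of aligned chromosomes, had 34.9, 34.6, 40.8, 32.6 and 38.1 CPM in DMSO and 30.2, 29.4, 29.0, 29.5 and 28.3 CPM in enzalutamide. The DMSO libraries spread more widely than the enzalutamide libraries, and the groups were nearest at 32.6 and 30.2 CPM. The log2 fold change of Kif18a was -0.30 ± 0.057 (SE; edgeR, adjusted p = 0.000384). Its relative Kif18b (ENSMUSG00000051378, chr11:102905529-102925124), which limits the length of astral microtubules, had 62.6, 64.8, 63.8, 60.5 and 67.5 CPM in DMSO and 51.3, 52.7, 55.0, 48.3 and 51.5 CPM in enzalutamide, again without overlap. The change of Kif18b, -0.30 ± 0.043 (SE; edgeR, adjusted p = 2.94e-05), differed from that of Kif18a by less than either SE. Kif2c (ENSMUSG00000028678, chr4:117159639-117182639), a kinesin-13 that depolymerises microtubules at centromeres and so corrects faulty attachments, had 72.0, 68.6, 76.1, 76.2 and 68.3 CPM in DMSO and 55.8, 59.7, 55.6, 60.6 and 56.1 CPM in enzalutamide. That is a log2 fold change of -0.33 ± 0.044 (SE; edgeR, adjusted p = 1.41e-05), with no treated library reaching the control range.

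The members of the midzone and of cytokinesis included the deepest fall. Kif4 (ENSMUSG00000034311, chrX:100625737-100727214), a chromokinesin that also limits the length of the midzone together with the microtubule bundler Prc1, had 143, 142, 150.3, 145 and 152 CPM in DMSO. It dropped to 115, 103, 105, 110.2 and 105 CPM in enzalutamide, with a log2 fold change of -0.45 ± 0.036 (SE; edgeR, adjusted p = 4.44e-08). Prc1 fell too, from 231 ± 6.24 to 171 ± 4.42 CPM (log2 fold change -0.43 ± 0.030; edgeR, adjusted p = 6.69e-09). Exons of Pdzd11 on the opposite strand cover 15.1% of the exon bases of Kif4, and Pdzd11 itself fell by 17.8%; the strand setting of the counting is not given in the sources used here, and the part of such reads was not tested. Kif20a (ENSMUSG00000003779), a kinesin-6 that carries the chromosomal passenger complex to the midzone, had 219.9, 229, 227, 231 and 243 CPM in DMSO and 181, 178, 181, 173 and 181 CPM in enzalutamide. The enzalutamide libraries spanned only 173 to 181 CPM, and the log2 fold change was -0.36 ± 0.031 (SE; edgeR, adjusted p = 9.50e-08). Its opposite-strand neighbour Cdc23, whose exons cover 29.3% of its exon bases, did not pass (log2 fold change -0.02, edgeR adjusted p = 0.612).

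Kif20b (ENSMUSG00000024795, chr19:34922361-34975745), another kinesin-6 that acts late in cytokinesis, had 120.3, 125, 126, 124 and 134 CPM in DMSO and 94.0, 90.7, 100.1, 107 and 111 CPM in enzalutamide. The treated libraries were more scattered than for any other mitotic member (SD 8.52 CPM), yet none reached the control range. Its log2 fold change was -0.32 ± 0.050 (SE; edgeR, adjusted p = 6.01e-05). Kif23 (ENSMUSG00000032254, chr9:61915905-61946774) forms the centralspindlin complex with Racgap1. Levels of Kif23 were 48.6, 50.7, 46.5, 45.2 and 50.2 CPM in DMSO and 36.7, 38.9, 38.2, 40.6 and 40.3 CPM in enzalutamide, a log2 fold change of -0.31 ± 0.046 (SE; edgeR, adjusted p = 4.52e-05). Racgap1 also fell, from 294 ± 6.03 to 246 ± 5.38 CPM (log2 fold change -0.25 ± 0.028; edgeR, adjusted p = 1.61e-06). Kif14 (ENSMUSG00000041498, chr1:136466343-136531511), a kinesin-3 that works with citron kinase (Cit) in cytokinesis, had 60.8, 70.1, 61.0, 69.8 and 67.3 CPM in DMSO and 57.1, 51.3, 55.2, 54.4 and 55.9 CPM in enzalutamide. The groups were nearest at 60.8 and 57.1 CPM, and the log2 fold change was -0.27 ± 0.049 (SE; edgeR, adjusted p = 0.000332). Cit fell by 16.2% (edgeR, adjusted p = 5.91e-05).

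**Figure D3:**
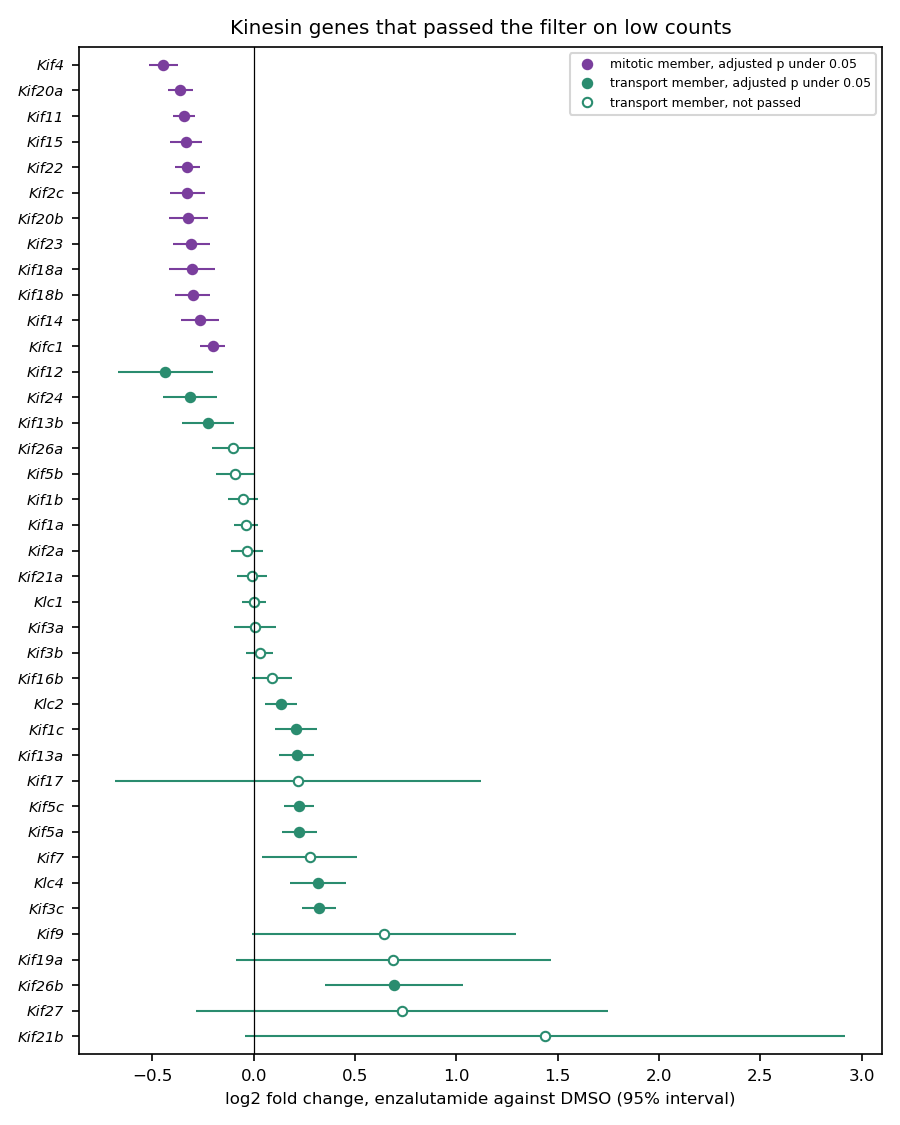
Log2 fold change of enzalutamide against DMSO (horizontal axis) with its 95% interval for the 39 kinesin genes that passed the filter on low counts, mitotic members in purple and transport members in green, filled where the adjusted p was under 0.05. The 12 mitotic members lie between -0.45 and -0.20, and the transport members lie on both sides of 0.

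A list of 30 genes outside the set, called spindle and cytokinesis partners here, moved the same way. It was drawn up broadly and also holds Top2a, Mki67 and Cenpe. Cenpe is itself a mitotic kinesin, which the rule by symbol leaves out of the set. Its level fell from 239 ± 4.18 to 185 ± 6.87 CPM (log2 fold change -0.37 ± 0.031, edgeR adjusted p = 7.10e-08). In the list 29 of 30 fell, all 29 without overlap between the groups. Of all genes tested, 18.8% were called lower and 13.7% were lower without overlap. The list's median log2 fold change was -0.36. It was chosen with earlier results of these data known, so its count is not independent support for the fall of the kinesins. The 4 with the lowest adjusted p were cyclin B1 (Ccnb1, -0.51 ± 0.033, from 199.8 ± 4.91 to 140.3 ± 5.49 CPM), the mitotic kinase Plk1 (-0.50 ± 0.034), Prc1 and topoisomerase IIα (Top2a, -0.38 ± 0.027), with adjusted p between 2.62e-09 and 1.18e-08 in edgeR's test. The only member that rose was Numa1, a spindle pole protein that also has a role in the interphase nucleus (0.09 ± 0.031, edgeR adjusted p = 0.0305), and its groups overlapped. That call was lost when trends with transcript GC content and length were removed and when any 1 of 6 libraries was left out (DMSO 1, 2 or 3, enzalutamide 1, 4 or 5). TTTGAA occurred in 19 of the 29 RefSeq windows of the list (65.5%), against 17.9% of all windows. By gene, it occurred in 17 of the 27 with a window (63%), against 20.2% of all genes with a window. As the list was chosen with results known, this share is a description only.

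The transport kinesins did not move together. Of the 29, Kif2b had 0 counts in every library, which allows up to 0.0504 CPM in the shallowest one, and Kif6 was too low for the filter (0 to 0.491 CPM). Among the 27 that passed it, 8 rose, 3 fell and 16 did not pass the test. Of all genes tested, 19% were called higher and 18.8% lower, 37.8% in all. Without overlap between the groups, 6 were higher and 1 was lower, beside 13.1% and 13.7% of all genes tested. The summed level was 2884 ± 65.3 CPM in DMSO and 2892 ± 109 CPM in enzalutamide (n = 5 each), with overlapping ranges. The median log2 fold change was 0.13, and 0.02 for the 22 members with a DMSO mean of at least 1 CPM. The split depended on the correction for transcript GC content and length, added after the data were seen: with those trends removed 7 rose and 7 fell.

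Kinesin-1 consists of 2 heavy chains, which carry the motor, and 2 light chains, which bind cargo. Kif5b, the heavy chain made in most tissues (ENSMUSG00000006740), had 356, 359, 329.7, 345 and 387 CPM in DMSO and 324, 306, 332, 329.7 and 373 CPM in enzalutamide. Those ranges overlapped, and its log2 fold change of -0.09 (95% interval -0.19 to 0.00) did not pass (edgeR adjusted p = 0.141). Without enzalutamide library 5, its highest treated library, the value was -0.14 with an adjusted p of 0.0106 in the same test, and with GC and length trends removed it was -0.11 with an adjusted p of 0.0057. The neuronal heavy chains both rose. Kif5c (ENSMUSG00000026764, chr2:49619298-49774778) had 129, 133, 139, 138 and 139 CPM in DMSO and 158, 149.8, 153, 162 and 169 CPM in enzalutamide, without overlap (log2 fold change 0.22 ± 0.037; edgeR, adjusted p = 0.000127). Kif5a (ENSMUSG00000074657, chr10:127225696-127263348) had 86.4, 87.1, 80.3, 82.5 and 74.6 CPM in DMSO and 92.0, 98.4, 94.3, 93.4 and 102 CPM in enzalutamide. Every treated library lay above every control library, and the change was the same size as for Kif5c (0.22 ± 0.044; edgeR, adjusted p = 0.000631). Per kb of exon, Kif5a and Kif5c together made up 40.5, 40.9, 42.8, 41.8 and 38.4% of the heavy chain level in the DMSO libraries. The enzalutamide libraries had 46.4, 47.8, 45.7, 46.6 and 45.0%, all above the DMSO range, so that Kif5b went from 59.1 ± 1.66% to 53.7 ± 1.05% (n = 5 each) and remained the most abundant.

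Among the light chains, Klc1 (ENSMUSG00000021288, chr12:111758849-111807844) had 233, 245, 239.9, 235 and 243 CPM in DMSO and 245, 231, 232, 240.3 and 249 CPM in enzalutamide. Those values interleave, and the log2 fold change of 0.00 had a 95% interval of -0.06 to 0.06. Klc4 (ENSMUSG00000003546, chr17:46630624-46646022), the least abundant light chain of the set, had 12.1, 11.2, 12.0, 10.7 and 10.8 CPM in DMSO and 14.4, 13.6, 14.9, 15.4 and 12.6 CPM in enzalutamide. All 5 treated libraries were above the controls (log2 fold change 0.32 ± 0.070; edgeR, adjusted p = 0.00171). Klc2 rose from 81.5 ± 1.41 to 89.4 ± 4.91 CPM (0.13 ± 0.039; edgeR, adjusted p = 0.0114) with overlapping groups, and lost its call when GC and length trends were removed (0.06, adjusted p = 0.308). Per kb of exon, Klc1 made up 70.6 ± 0.736% of the summed level of Klc1, Klc2 and Klc4 in DMSO and 68.1 ± 0.695% in enzalutamide (n = 5 each). Klc3, a light chain outside the set, was low (1.31 ± 0.210 and 0.873 ± 0.441 CPM) and did not pass (edgeR adjusted p = 0.171).

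The kinesin-2 motor is a pair of Kif3a with Kif3b or Kif3c, joined by the adaptor Kifap3, and moves cargo in cilia and in axons. Kif3c (ENSMUSG00000020668, chr12:3365132-3406494) had the lowest adjusted p of the transport members, with 62.6, 60.7, 54.8, 58.8 and 62.6 CPM in DMSO. Enzalutamide libraries had 77.0, 75.9, 77.1, 73.1 and 70.8 CPM, and the lowest of them was above the highest control. The log2 fold change was 0.32 ± 0.043 (SE; edgeR, adjusted p = 1.49e-05). Exons of other genes on the opposite strand, 1110002L01Rik among them, cover 40.7% of the exon bases of Kif3c. 1110002L01Rik had 8.47 ± 0.549 CPM in DMSO and 9.31 ± 1.35 CPM in enzalutamide and did not pass (edgeR adjusted p = 0.297). The partners of Kif3c did not pass. Kif3a had 33.1 ± 1.64 and 33.2 ± 2.00 CPM, Kif3b 88.1 ± 2.95 and 90.0 ± 2.07 CPM, and Kifap3 95.7 ± 4.28 and 96.2 ± 3.30 CPM in DMSO and enzalutamide. Their log2 fold changes were 0.01 (95% interval -0.10 to 0.11), 0.03 (-0.04 to 0.10) and 0.01 (-0.07 to 0.08). Per kb of exon, the ratio of Kif3c to Kif3b was 0.568, 0.528, 0.460, 0.510 and 0.522 in the DMSO libraries and 0.678, 0.634, 0.641, 0.617 and 0.593 in the enzalutamide libraries, without overlap. Kif17, a kinesin-2 that works without Kifap3, was low (0.752 ± 0.587 and 0.875 ± 0.446 CPM) and did not pass (log2 fold change 0.22, 95% interval -0.68 to 1.12).

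Kinesin-3 motors carry dense-core granules, synaptic vesicle precursors and endosomes. Kif1a (ENSMUSG00000014602, chr1:93015464-93101951), the carrier of dense-core granules in neurons, was the most abundant kinesin, with 932, 991, 949, 992 and 999.8 CPM in DMSO and 963, 894, 935, 952 and 990.2 CPM in enzalutamide. The ranges overlapped, and its log2 fold change of -0.04 (95% interval -0.10 to 0.02) did not pass (edgeR adjusted p = 0.352). Removing GC and length trends gave -0.09, which passed (adjusted p = 0.00038), and with total counts without Gcg and mitochondrial mRNAs it was 0.00. Kif1b, which also carries mitochondria, had 324 ± 10.6 and 312 ± 17.7 CPM and did not pass (-0.05, 95% interval -0.13 to 0.02). It too passed with those trends removed (-0.08, edgeR adjusted p = 0.00932). Kif1c, another close relative, rose from 36.4 ± 1.67 to 42.1 ± 2.88 CPM (0.21 ± 0.053; edgeR, adjusted p = 0.00467) with overlapping groups.

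The paralogues Kif13a and Kif13b moved in opposite directions. Kif13a (ENSMUSG00000021375, chr13:46749087-46929867), a carrier of recycling endosomes, had 45.4, 50.0, 48.4, 48.4 and 48.6 CPM in DMSO. In enzalutamide it had 51.6, 55.0, 56.3, 57.4 and 58.8 CPM, all above the controls (log2 fold change 0.21 ± 0.044; edgeR, adjusted p = 0.000927). Kif13b fell from 21.0 ± 1.54 to 18.0 ± 1.25 CPM (-0.23 ± 0.065; edgeR, adjusted p = 0.0101), with 1 treated library inside the control range. The ratio of Kif13a to Kif13b per kb of exon was 3.23, 4.21, 3.95, 3.53 and 3.60 in the DMSO libraries and 4.86, 4.94, 5.20, 5.30 and 4.69 in the enzalutamide libraries, without overlap. Kif16b, a motor of early endosomes, had 24.9 ± 1.18 and 26.4 ± 0.961 CPM and did not pass (0.09, edgeR adjusted p = 0.177), but did with total counts without Gcg and mitochondrial mRNAs (0.13, adjusted p = 0.0454).

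**Figure D4:**
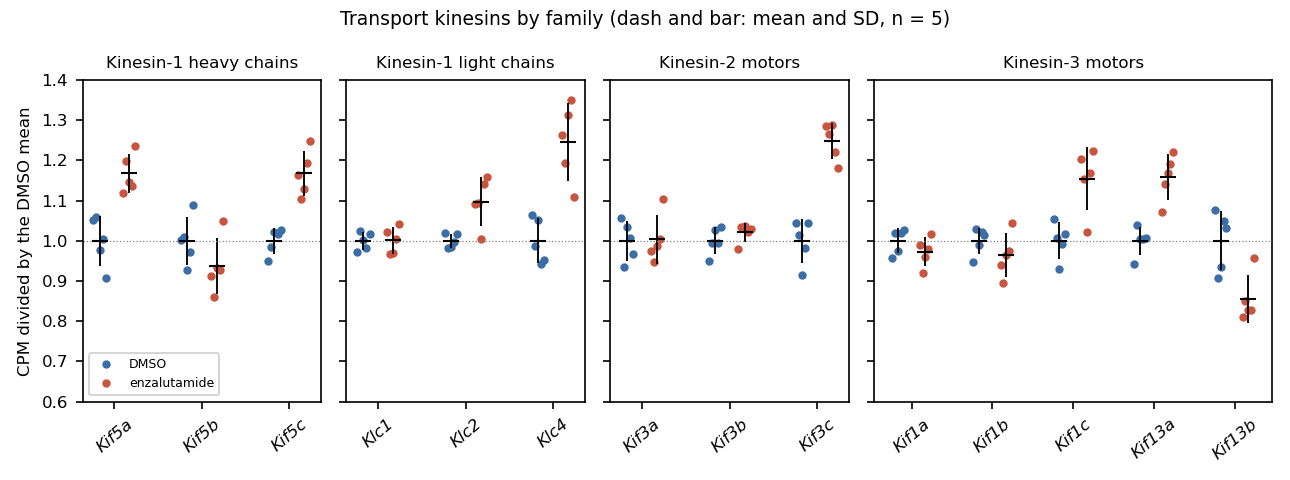
CPM divided by the gene's DMSO mean (vertical axis) for kinesin-1, kinesin-2 and kinesin-3 members in the 5 DMSO libraries (blue) and the 5 enzalutamide libraries (red), with the mean (dash) and SD (bar). Kif5a, Kif5c, Klc4, Kif3c and Kif13a lie above their controls without overlap, while Kif5b, Klc1, Kif3a, Kif3b, Kif1a and Kif1b overlap with them.

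The remaining members named by the rule mostly do other work than vesicle transport. Kif24 (ENSMUSG00000028438, chr4:41390745-41464887), a kinesin-13 of the centriole that restrains cilium formation, was the 1 member outside the mitotic list that fell without overlap. It had 22.6, 27.1, 27.0, 26.0 and 22.7 CPM in DMSO and 20.2, 18.0, 21.7, 20.2 and 20.8 CPM in enzalutamide, a log2 fold change of -0.31 ± 0.067 (SE; edgeR, adjusted p = 0.00127). That value lies within the range of the mitotic members. Kif2a, a microtubule depolymerase of the same family, had 109 ± 5.33 and 106 ± 4.24 CPM and did not pass (-0.03, 95% interval -0.11 to 0.04). Kif12 fell from 7.33 ± 0.833 to 5.42 ± 0.909 CPM (-0.44 ± 0.12; edgeR, adjusted p = 0.00777) with overlapping groups.

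Kif26b (ENSMUSG00000026494, chr1:178529125-178939200), a divergent kinesin with no motor activity, was low, with 1.31, 1.18, 1.28, 1.69 and 1.34 CPM in DMSO and 2.10, 1.90, 2.33, 2.19 and 2.46 CPM in enzalutamide. Its groups did not overlap, and its log2 fold change of 0.69 ± 0.17 (SE; edgeR, adjusted p = 0.00441) was the largest of those that passed in the set. Its relative Kif26a had 34.8 ± 2.00 and 32.4 ± 1.90 CPM and did not pass (-0.10, edgeR adjusted p = 0.156), whereas removing GC and length trends gave -0.21, which passed (adjusted p = 0.00145). Kif21a, a kinesin-4 that restrains microtubule growth, had 184 ± 6.50 and 183 ± 8.86 CPM (-0.01, 95% interval -0.08 to 0.06). Kif7, a kinesin-4 of the cilium tip and of Hedgehog signalling, had 7.62 ± 1.50 and 9.23 ± 1.13 CPM and did not pass (0.28, 95% interval 0.04 to 0.51, edgeR adjusted p = 0.0822). Without DMSO library 2, which stood above the other controls, its change was 0.40 with an adjusted p of 0.00519, and with total counts without Gcg and mitochondrial mRNAs it was 0.32 with an adjusted p of 0.0464. Opposite-strand exons cover 20.3% of the exon bases of Kif7 (those of Ticrr among them, a gene that fell by 26.7%), 19.2% of Kif2a and 10.6% of Klc2. Kif9, Kif19a, Kif21b and Kif27 stayed under a mean of 1 CPM in both groups, and none passed; their wide 95% intervals all included 0.

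Levels per kb of exon were used to put the motors in order. The length counts every base in any annotated exon of a gene (9832 for Kif18a and 3414 for Kifc1). It is not the length of the mRNA made in these cells, so the order depends on the annotation. The same holds for the shares and ratios per kb given above. In DMSO the order was led by Kif1a (104 ± 3.22 CPM per kb), Klc1 (58.8 ± 1.34), the mitotic Kif20a (53.0 ± 1.95), Kif5b (44.5 ± 2.62), Kif11 (33.6 ± 0.615) and Kifc1 (31.2 ± 0.828). Kif1a alone took 33.7 ± 0.359% of the CPM of the transport members in DMSO and 32.7 ± 0.371% in enzalutamide (n = 5 each). The neighbours Kif20a and Kif5b were 53.0 ± 1.95 and 44.5 ± 2.62 in DMSO but 41.2 ± 0.803 and 41.7 ± 3.11 in enzalutamide, where they did not differ beyond their spread. Klc2, Kif5c, Kif1b, Kif20b and Kif18b had DMSO levels between 17.9 and 19.7 CPM per kb, with neighbours that overlapped in their SDs. The lowest mitotic member was Kif18a (3.68 ± 0.330 CPM per kb), which overlapped in its SD with Kif24 (3.13 ± 0.283) and lay above Kif16b, Kif12, Kif7, Kif13b and the transport members under 1 CPM per kb.

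**Figure D5:**
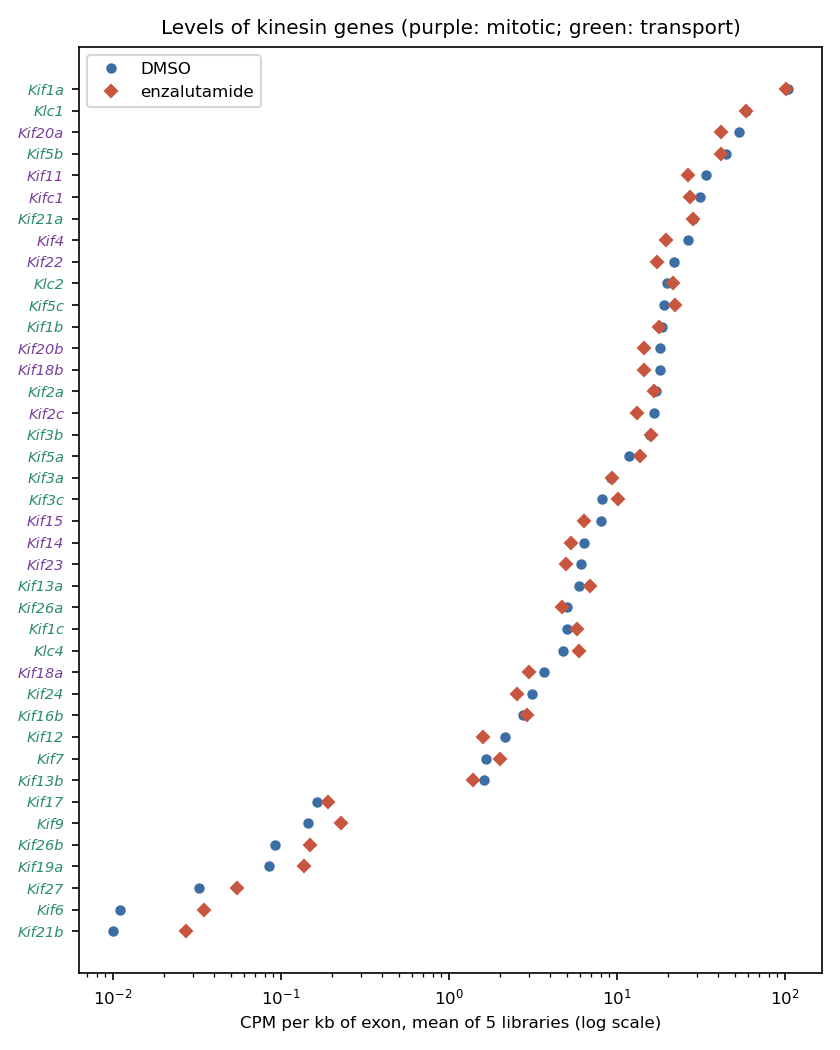
Mean level per kb of exon (horizontal axis, CPM per kb, log scale) of the 40 kinesin genes with counts, in DMSO (blue circles) and enzalutamide (red diamonds), ordered by the DMSO level, with mitotic names in purple and transport names in green. The mitotic genes have red diamonds to the left of the blue circles, and Kif1a is highest in both groups.

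Cargo adaptors and regulators of kinesins, a list of 38 found in the table of which 37 passed the filter, moved in both directions. In it 8 rose and 5 fell, with a median log2 fold change of 0.04, where 19% and 18.8% of all genes tested were called higher and lower. The split was 13 higher and 3 lower with total-count scaling and 14 and 3 with total counts without Gcg and mitochondrial mRNAs, settings under which all genes tested went from 2696 higher and 2662 lower to 3285 and 2131 and to 3443 and 2042. The lysosome and vesicle adaptor Arl8a rose from 107 ± 4.84 to 133 ± 9.59 CPM (0.30 ± 0.046), as did the kinesin-1 adaptor Mapk8ip3 (0.20 ± 0.034), the granule GTPase Rab3a (0.19 ± 0.035) and Hap1 (0.31 ± 0.066), with adjusted p between 5.43e-05 and 0.00122 in edgeR's test. Lower were the granule GTPase Rab27a (-0.19 ± 0.044), the mitochondrial adaptors Rhot2 (-0.16 ± 0.039) and Trak2 (-0.14 ± 0.033), and Arl8b (-0.09 ± 0.028), a close relative of Arl8a that went the other way, with adjusted p between 0.00238 and 0.0163.

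Dynein and dynactin, which move cargo in the opposite direction, were listed with their adaptors and with the C-terminal kinesins Kifc2 and Kifc3 (33 genes, all of which passed the filter). Of these 7 rose and 11 fell, where 19% and 18.8% of all genes tested were called higher and lower, with a median log2 fold change of 0.01. The split became 9 and 8 with total-count scaling and 12 and 7 with total counts without Gcg and mitochondrial mRNAs. Kifc2 was low and rose by 95.9%, from 3.79 ± 0.840 to 7.42 ± 0.995 CPM (0.97 ± 0.14; edgeR, adjusted p = 3.90e-05). The adaptors Hook2 (0.39 ± 0.068), Bicd1 (0.37 ± 0.065) and Ndel1 (0.20 ± 0.040) also rose. The falls with the lowest adjusted p were the light chain Dynll1 (-0.42 ± 0.040, from 101 ± 4.08 to 75.8 ± 3.60 CPM), the capping proteins Capza1 (-0.28 ± 0.031) and Capzb (-0.24 ± 0.034), and the actin-related Actr1a (-0.22 ± 0.030), with adjusted p between 3.62e-07 and 3.13e-05 in edgeR's test.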

How the data were processed

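The study measured polyadenylated RNA of αTC1 cells in 5 DMSO and 5 enzalutamide libraries, grouped by title and treatment label. The authors deposited whole-number counts per Ensembl gene, the basis of every main result. They also deposited a normalized signal per gene, used here in an alternative. For the 20039 genes compared it equalled the counts divided by a constant per library, which was not compared with DESeq2 size factors. HISAT2, StringTie, DESeq2 and mm10 are named, without versions, per the submitters' processing notes. The sources used here do not give the strand setting or the treatment of multiply mapped reads.

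In R 4.3.3 with edgeR 4.0.16, filterByExpr left 14156 genes. Scaling used the trimmed mean of M values, and the quasi-likelihood test was adjusted by Benjamini-Hochberg over all genes (threshold 0.05). Standard errors were taken from the log2 fold change and the root of the F statistic (their ratio), with normal 95% intervals. Positions and exon lengths (all bases in any annotated exon of a gene) come from GENCODE M21 (GRCm38), which held 96.5% of the genes. No 2 libraries of a group agreed within sampling noise. The limit of a count of 0 is 3 counts and covers counting error only. The test was also run on simulated counts, with far fewer changed genes than were called here and the same dispersion for every gene. Those conditions are simpler than the data, so the run does not give the error rate here.

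Members and gene lists were chosen with earlier results of these data known, and results for some marker genes are not reported here. Values in every library are given for the mitotic members and for transport members that passed without overlap or were the 3 highest per kb; in each partner list up to 4 members per direction with the lowest adjusted p are named, with Prc1, Racgap1 and Kifap3. Cit, Numa1, Cenpe, Kif13b, Kifc5b, Klc3 and the opposite-strand neighbours were named after their values were seen. Alternatives were other scalings, filters and tools (DESeq2 1.42.0, limma 3.58.1 with pseudocounts of 1 and 8), a replicate block, leaving out each library and, added later, removal of GC and length trends.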

Additional observations from a re-analysis of the deposited data

Results flagged for a closer look

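Of 78 groups of 5 libraries, 1 per kinesin gene that passed the filter and treatment, 4 held a library whose gap to its nearest neighbour was over 0.71 of the group's range, a limit that chance passes in about 1 in 20 groups. Kif13b had 20.2 CPM in enzalutamide library 5, against 17.1 to 17.9 CPM in the other treated libraries. Kif22 had 111 CPM in DMSO library 4, against 105 to 107 CPM. Kif3b had 86.4 CPM in enzalutamide library 1, against 90.1 to 91.5 CPM. Kif7 had 10.2 CPM in DMSO library 2, against 6.41 to 7.43 CPM, and without this library Kif7 passed the test (log2 fold change 0.40, edgeR adjusted p = 0.00519).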

How the results depend on the processing

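The 12 mitotic kinesins were lower with an adjusted p under 0.05 in all 21 alternatives, and no count of called genes over both directions moved by over 1.5 times. Counts in 1 direction did: the transport members that fell went from 3 to 7 with GC and length trends removed. Cargo adaptors that rose went from 8 to 13 with total-count scaling and to 14 without Gcg and mitochondrial mRNAs, and those that fell from 5 to 3 with both and without enzalutamide library 1. Dynein and dynactin genes that rose went from 7 to 12, and those that fell from 11 to 7, without Gcg and mitochondrial mRNAs. The transport count of 11 went from 11 to 14 over the alternatives. For the log2 fold changes of single members, 781 comparisons of a member and an alternative kept direction and call, 9 gained the call, 1 lost it (Klc2) and 23 turned sign, all 23 in members that did not pass and lay close to 0 or at low counts.

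Klc1 was -0.0011 with relative log expression size factors, -4.69e-05 with a mean CPM of at least 1, -0.0012 with DESeq2, -0.0015 with limma-trend at either pseudocount, -0.0241 with GC and length trends removed, and -0.0129 to 0.0143 when 1 library was left out. Kif21a was 0.0261 with total-count scaling, 0.0329 with total counts without Gcg and mitochondrial mRNAs, and -0.0243 to 0.0161 when 1 library was left out. Kif2a was 0.0014 and 0.0083 and Kif1a 0.0027 (without Gcg and mitochondrial mRNAs only) under those scalings. Leaving out 1 library gave -0.0308 to 0.0262 for Kif3a and -0.12 to 0.72 for Kif17. The cause was not tested.

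Labels number the libraries 1 to 5 in both groups and do not say that the numbers mark pairs. Deviations of same-numbered libraries correlated by -0.00849 to 0.0451 over 14156 genes. The highest correlation with another number was 0.00977 to 0.0545. The same number was higher for DMSO libraries 2, 3 and 5 and lower for 1 and 4. All these correlations were small, and they do not settle whether the libraries were paired. With the number as a replicate block 12 mitotic and 12 transport kinesins passed, Kif5b in addition (-0.09, edgeR adjusted p = 0.0483), and 5296 of all genes did. Kinesin genes under 1 CPM are limited by depth, and near-copies and overlapping genes by counting rules that are not given.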
